A study of Homo sapiens with 6 samples.

Results

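HMOX1 and BLVRB encode enzymes of the pathway that breaks heme down to bilirubin, and they are 2 of the 14884 named genes measured here in SH-SY5Y cells. The pair was selected on its measured differences from mock with securinine and with 16F16 on these same arrays. The levels of both genes and their differences between groups are therefore given as a description, without a test. Each gene had 1 probe set, a set of array probes summarised to 1 value per array. HMOX1 carries the Entrez identifier 3162 and BLVRB the identifier 645. SH-SY5Y is an established human neuroblastoma line with features of sympathetic neurons, and a line of this kind stands for neither primary tumours nor mature neurons. The cells received the solvent methanol (mock), securinine at 30 µM or 16F16 at 4 µM, each for 24 h. The labels describe both compounds as inhibitors of protein disulfide isomerase, an enzyme of the endoplasmic reticulum that makes and rearranges disulfide bonds. Each of the 3 groups had 2 Affymetrix Human Gene 2.0 ST arrays, labelled as biological replicates. How separate the cultures were is not stated, so errors and p-values measure the spread between these samples. The doses of the compounds differed, so every value that sets them side by side compares 16F16 at 4 µM with securinine at 30 µM.

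Heme oxygenase opens the heme ring and releases biliverdin, carbon monoxide and ferrous iron. HMOX1 is the inducible form of that enzyme, and its paralog HMOX2 is made constitutively, with high levels known in brain and testis. Biliverdin reductases then reduce biliverdin with NADPH or NADH to bilirubin, a lipid-soluble antioxidant. BLVRA acts on the alpha isomer of biliverdin that heme oxygenase yields, and BLVRB acts on other isomers and also serves as a flavin reductase. The transcription factor NRF2, encoded by NFE2L2, activates HMOX1 through antioxidant response elements when electrophiles or oxidants disable its inhibitor KEAP1. BLVRB is commonly counted among the NRF2 targets as well.

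The labelled cell type was checked with marker genes. Of 14 markers of noradrenergic neuroblastoma cells, 11 were measured, and their mean log2 value was 9.92 on the mock arrays, 9.16 to 9.27 with securinine and 9.51 to 9.53 with 16F16. The mean lay between 3.88 and 4.03 over 6 measured macrophage and microglia markers, 4.09 and 4.30 over 5 erythroid markers, 4.54 and 4.88 over 8 epithelial and endothelial markers, and 4.92 and 5.12 over 3 fibroblast markers. The median of all probe sets was 4.16 to 4.23 per array, and the lower quartile, used here as a mark of low signal, was 2.83. Of the erythroid markers HEMGN lay under that quartile on all 6 arrays, and AHSP, EPB42, KLF1 and GATA1 on none, with GATA1 at 5.48 to 5.91. Of the fibroblast markers DCN lay under it on all 6 arrays, and LUM (5.78 to 6.35) and THY1 (6.07 to 6.75) on none. With securinine 6 of the 11 neuroblastoma markers fell in limma, and with 16F16 3 fell, against 10.6% and 0.779% of all genes called lower. Calls here and below are those with a p under 0.05 after Benjamini-Hochberg adjustment over all 14884 genes. Leaving out mock replicate 1, mock replicate 2 or securinine replicate 1 lowered the securinine count of markers to 3, and leaving out any 1 of the 6 arrays lowered the 16F16 count to 0 in limma, with 4 to 5 at an unadjusted p under 0.05. Among macrophage and microglia markers CD14 rose by 0.57 ± 0.14 with securinine, and among fibroblast markers THY1 fell by 0.46 ± 0.099, both named after their values were seen. Both calls were lost without any 1 mock or securinine array and with the replicate number as a block. The part of these changes in the results below was not tested. In RNA from whole cultures, fewer cells of a type and less RNA per cell cannot be told apart.

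The calls over all genes also depended on single arrays, and every list count below stands against that. For securinine against mock 2823 genes were called, and 658, 629, 701 and 974 without mock replicate 1, mock replicate 2, securinine replicate 1 and securinine replicate 2. For 16F16 against mock 223 genes were called, and 0 of 14884 in limma without any 1 of the 6 arrays, with 2099 to 2904 at an unadjusted p under 0.05. For 16F16 against securinine 1416 genes were called, and 0 in limma without either securinine replicate or 16F16 replicate 1, with 3023 to 3469 at an unadjusted p under 0.05. Without either mock replicate that count was 324, and without 16F16 replicate 2 it was 261.

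HMOX1 was higher with securinine and not with 16F16. Its log2 value was 5.30 and 5.40 on the mock arrays, 6.65 and 6.57 with securinine, and 5.11 and 5.70 with 16F16. Both securinine arrays stood above the other 4 arrays, and the 16F16 arrays lay on either side of the mock arrays. Among all genes, 27.0% had both securinine arrays above both mock arrays. The mean was 5.35 ± 0.065 (SD, n = 2) in mock, 6.61 ± 0.059 (n = 2) with securinine and 5.40 ± 0.42 (n = 2) with 16F16. The securinine mean exceeded the mock mean by 1.26 ± 0.19 on the log2 scale (SE of the limma fit), a 2.39-fold difference, with a 95% interval of 0.78 to 1.74. That difference was the 55th largest rise of the 14884 genes. The difference of 16F16 from mock was 0.05 ± 0.19, with an interval of -0.43 to 0.53, and it ranked 5661 among rises. The gap of 0.59 between the 16F16 arrays was the widest of the 3 groups for HMOX1. Without 16F16 replicate 1 the difference from mock was 0.345, and without 16F16 replicate 2 it was -0.243, so its sign rested on which of these arrays was kept.

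BLVRB showed the reverse assignment, higher with 16F16 and not with securinine. Its log2 value was 7.67 and 7.42 on the mock arrays, 7.57 and 7.42 with securinine, and 8.66 and 8.66 with 16F16. Both 16F16 arrays stood above the other 4, while the securinine and mock values overlapped. Among all genes, 24.1% had both 16F16 arrays above both mock arrays. The mean was 7.54 ± 0.17 (SD, n = 2) in mock, 7.50 ± 0.11 (n = 2) with securinine and 8.66 ± 0.0017 (n = 2) with 16F16. The 16F16 mean exceeded the mock mean by 1.11 ± 0.11 on the log2 scale (SE), a 2.16-fold difference, with a 95% interval of 0.83 to 1.39. It was the 19th largest rise of the 14884 genes with 16F16. The securinine difference was -0.04 ± 0.11, with an interval of -0.32 to 0.23, and it ranked 7670 among rises. Leaving out mock replicate 1 turned that near-zero difference to 0.078, leaving out securinine replicate 2 turned it to 0.031, and leaving out mock replicate 2 gave -0.168.

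**Figure D1:**
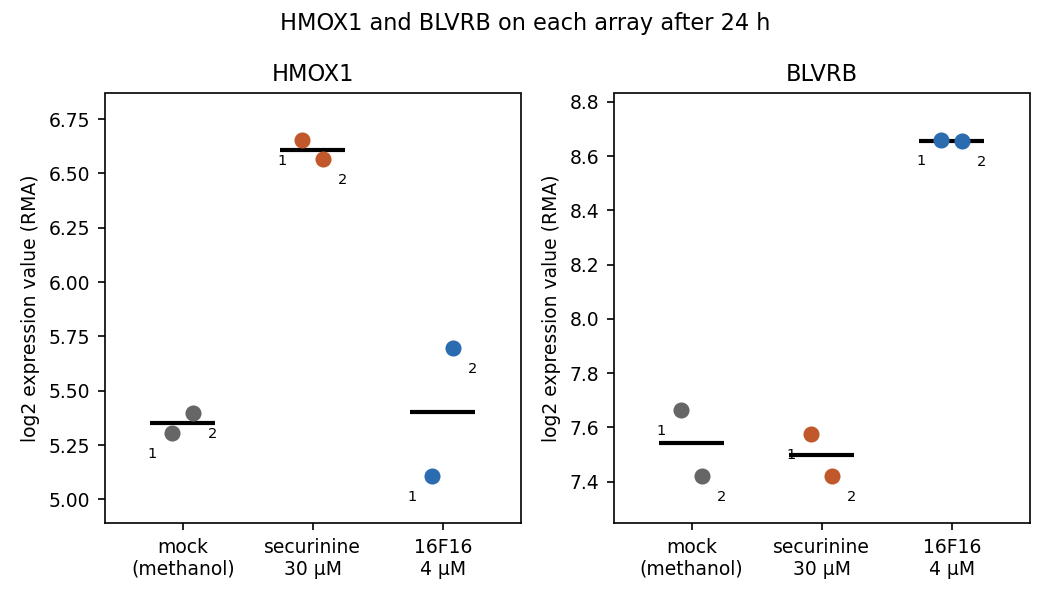
Log2 expression values of HMOX1 (left) and BLVRB (right) on each of the 6 arrays, by treatment group. Points are arrays, with their replicate number beside them, and bars are group means of 2 arrays. The axes do not start at 0. HMOX1 is high on the 2 securinine arrays (6.57 and 6.65), and BLVRB is high on the 2 16F16 arrays (8.66 on both).

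The 250 bases upstream of the annotated BLVRB start are shown as the sequence next to the start of the gene that was higher with 16F16. The HMOX1 window is not analysed here. They come from RefSeq, build GRCh38.p14, chr19:40465746-40465995, minus strand, and are written 5′ to 3′ towards the start. Capitals mark every GGGCGG, the GC box bound by SP1 family factors, on either strand.
BLVRB upstream: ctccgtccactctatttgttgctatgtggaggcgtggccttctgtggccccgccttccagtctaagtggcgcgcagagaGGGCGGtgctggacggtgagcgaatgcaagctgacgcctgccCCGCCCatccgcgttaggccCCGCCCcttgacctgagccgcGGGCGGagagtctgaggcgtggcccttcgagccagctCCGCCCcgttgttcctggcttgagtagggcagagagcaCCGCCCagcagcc
The window held 6 GC boxes and 21 CpG dinucleotides, and its GC content was 67.2%. Of 35116 such windows, 42.6% held at least 1 GC box and 30.2% held 21 or more CpG dinucleotides. The share with 6 or more GC boxes was not counted. The median window had 11 CpG dinucleotides and 58.0% GC. The other letters searched, each on both strands, were TGACNNNGC (core of the antioxidant response element), TGANTCA (AP-1), CACGTG (E-box), GAANNTTC and TTCNNGAA (paired heat shock units), TGACGTCA (cyclic AMP response element) and TGATGNAA (amino acid response element). None of these 7 was in the BLVRB window, and they were in 10.9%, 6.57%, 6.34%, 5.78%, 6.62%, 1.65% and 3.14% of all windows. The letters for AP-1 and for the antioxidant response core can fall on the same bases. These are matches of letters within this window and say nothing about binding.

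Set directly against each other, the compounds differed in opposite directions for the pair. HMOX1 was lower with 16F16 than with securinine by 1.21 ± 0.19 in log2 units (SE, with n = 2 per group), a 2.31-fold difference. That was the 22nd largest fall of the 14884 genes in that comparison. BLVRB was higher with 16F16 than with securinine by 1.16 ± 0.11, a 2.23-fold difference and the 48th largest rise. For neither gene did the 16F16 and securinine arrays overlap, and among all genes 26.4% had both 16F16 arrays below both securinine arrays and 29.3% above. This comparison uses none of the mock arrays. It is still the gap between the differences from mock on which the pair was selected, so it is not a separate result.

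Neither paralog passed with either compound. HMOX2, the constitutive heme oxygenase, had values of 6.28 and 5.99 in mock, 5.97 and 5.66 with securinine and 6.32 and 6.25 with 16F16. It stood at -0.32 ± 0.15 with securinine and 0.15 ± 0.15 with 16F16, and neither passed (limma adjusted p = 0.20 and 0.62). Leaving out 1 array moved HMOX2 to between -0.477 (without securinine replicate 1) and -0.166 (without securinine replicate 2) with securinine, and to 0.002 (without mock replicate 2) and 0.297 (without mock replicate 1) with 16F16. BLVRA, the reductase for biliverdin IX-alpha, had values of 8.65 and 8.84 in mock, 8.40 and 8.54 with securinine and 8.60 and 8.59 with 16F16. It stood at -0.28 ± 0.10 with securinine and -0.15 ± 0.10 with 16F16 (limma adjusted p = 0.12 and 0.45). CYB5R3, the flavin enzyme that passes electrons from NADH to cytochrome b5, fell with securinine by 0.31 ± 0.075 (limma adjusted p = 0.042), and with 16F16 it was at -0.12 ± 0.075. That call was lost under 9 of 14 alternatives, the omission of any 1 array among them.

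Around the pair, 35 further genes of heme and iron handling were measured, of 76 on lists that include the pair itself. With securinine 9 of these 35 passed in limma, 3 higher and 6 lower, against 19.0% called among all genes (8.40% higher and 10.6% lower). With 16F16 0 of 35 passed in limma, against 1.50% called among all genes. At an unadjusted p under 0.05 in the same limma fit were 8 of the 35, against 3139 of all 14884 genes. The medians were -0.081 with securinine and -0.003 with 16F16, and the range of single differences was -0.91 to 0.59 and -0.50 to 0.51. HMOX1 with securinine and BLVRB with 16F16 both lay above these ranges, which is part of the choice, since the pair was selected on its differences from mock. Leaving out mock replicate 1 or mock replicate 2 lowered the securinine count to 1, and leaving out securinine replicate 1 or securinine replicate 2 lowered it to 2. In those fits 4.42%, 4.23%, 4.71% and 6.54% of all genes were called, in place of 19.0%. The count was also 2 when all probe sets were tested.

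Of 9 measured genes of heme synthesis 1 fell with securinine and 0 rose in limma, against 10.6% of all genes called lower and 8.40% called higher, and 16F16 differences lay between -0.14 and 0.17. The gene that fell was TMEM14C, a carrier of porphyrin precursors across the inner mitochondrial membrane, with log2 values of 8.55 and 8.49 in mock, 8.11 and 8.09 with securinine and 8.50 and 8.53 with 16F16. Its difference with securinine was -0.42 ± 0.076 (limma adjusted p = 0.018), a call lost under 5 of 14 alternatives. FECH, the ferrochelatase that inserts iron into the porphyrin ring, stood at 0.03 ± 0.095 with securinine and 0.04 ± 0.095 with 16F16.

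Among 9 genes of heme uptake, export and binding, 1 rose and 2 fell with securinine in limma, against 8.40% called higher and 10.6% lower among all genes. Those that fell were the heme-binding proteins HEBP1 and HEBP2, while hemopexin (HPX), also a heme binder, was at 0.18 with securinine. HEBP2 had values of 7.23 and 7.16 in mock, 6.11 and 6.46 with securinine and 6.82 and 6.81 with 16F16, and it fell by 0.91 ± 0.13 with securinine (limma adjusted p = 0.0091). HEBP1 fell by 0.71 ± 0.12 with securinine (limma adjusted p = 0.014) and stood at 0.19 ± 0.12 with 16F16. The securinine calls were lost under 2 of 14 alternatives for HEBP2 and 5 for HEBP1. HEBP1 was higher with 16F16 than with securinine by 0.90 ± 0.12 (limma adjusted p = 0.017), the same direction as BLVRB. LRP1, a large endocytic receptor that takes up heme bound to hemopexin, rose by 0.50 ± 0.11 with securinine (limma adjusted p = 0.030), a call lost under 9 of 14 alternatives, the omission of any 1 array and the replicate block among them. With 16F16 LRP1 was at 0.51 ± 0.11 without passing (adjusted p = 0.078), and its difference between the compounds was 0.01 ± 0.11.

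Among 14 genes of iron storage and transport, 2 rose and 2 fell with securinine in limma, against 8.40% called higher and 10.6% lower among all genes. TFR2, a transferrin receptor that senses iron load, had values of 6.47 and 6.57 in mock, 5.70 and 5.73 with securinine and 6.40 and 6.25 with 16F16. It fell by 0.81 ± 0.091 with securinine (limma adjusted p = 0.0057). FBXL5, the ubiquitin ligase subunit that degrades iron regulatory proteins when iron is plentiful, rose by 0.47 ± 0.086 (limma adjusted p = 0.018) and was at -0.05 ± 0.086 with 16F16, and its call was lost under 5 of 14 alternatives. The iron chaperones PCBP1 and PCBP2 went opposite ways with securinine, at -0.37 ± 0.080 and 0.59 ± 0.14 (limma adjusted p = 0.030 and 0.039). The PCBP2 call was lost under 8 of 14 alternatives, the omission of any 1 array among them, and the PCBP1 call under 6, the replicate block among them. The ferritin genes, the ferroportin gene and TFRC are not analysed here. Against securinine, 16F16 gave 3 higher and 2 lower of the 35 heme and iron genes in limma, against 9.51% called among all genes (5.55% higher and 3.96% lower). Leaving out 1 array gave between 0 and 2, namely 0 without either securinine replicate or 16F16 replicate 1, 1 without either mock replicate and 2 without 16F16 replicate 2.

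**Figure D2:**
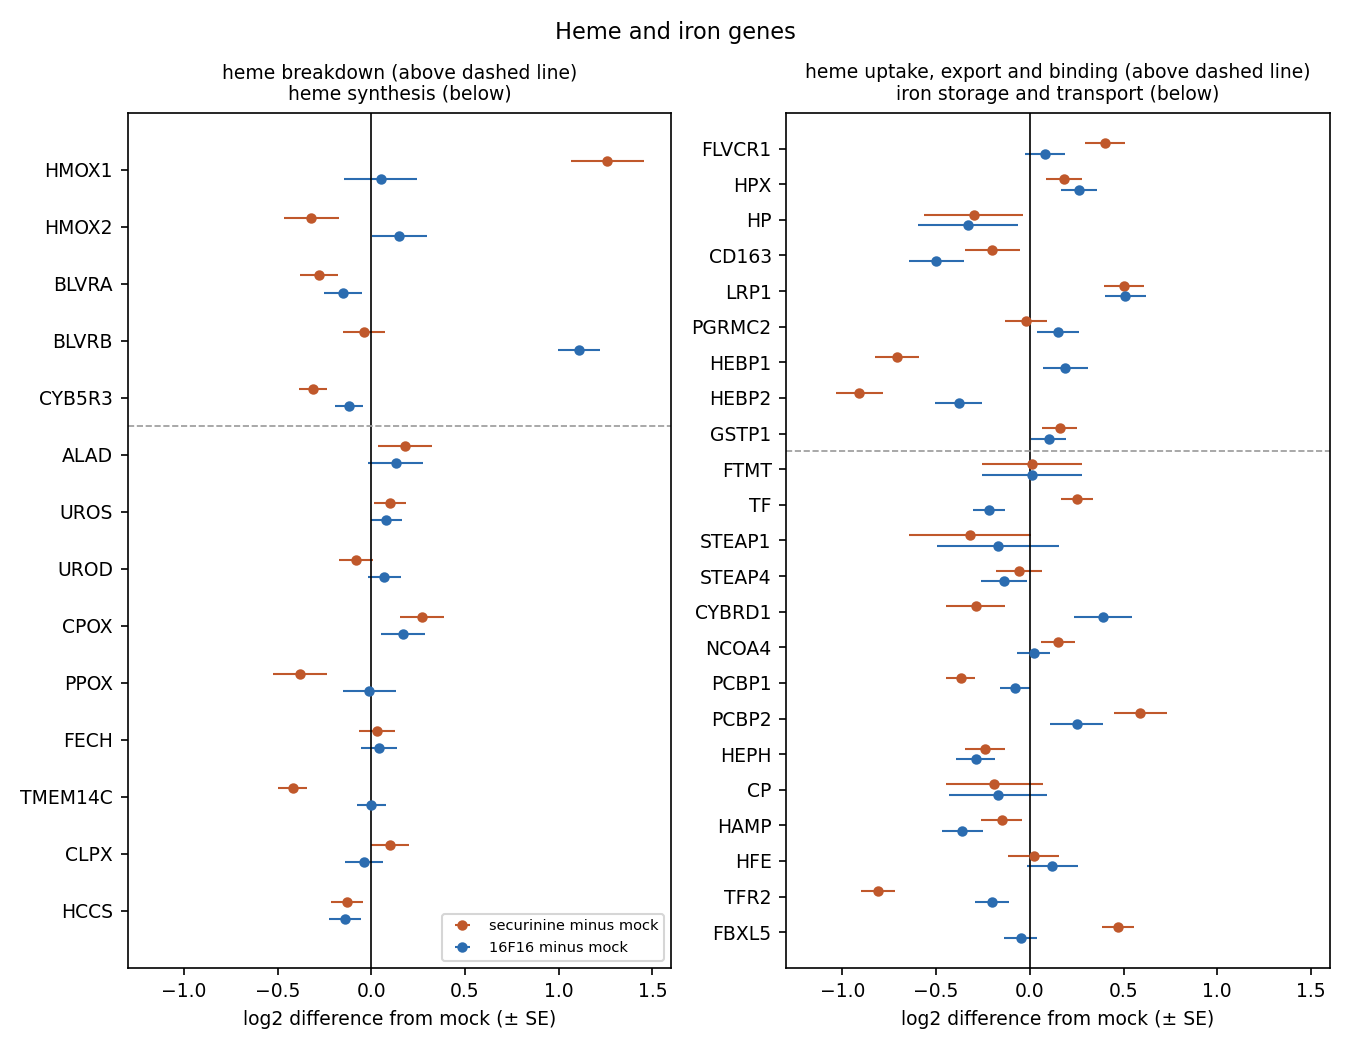
Log2 differences from mock for the measured heme and iron genes, with HMOX1 and BLVRB among the heme breakdown genes. Points are differences of group means (n = 2 arrays per group) and bars are ± SE of the limma fit, for securinine (orange) and 16F16 (blue). HMOX1 with securinine (1.26) and BLVRB with 16F16 (1.11) lie to the right of every other point. The pair was selected on its differences from mock.

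Of 13 measured regulators, 8 rose and 1 fell with securinine in limma, against 19.0% called among all genes, and the median was 0.545. With 16F16 1 of 13 rose and 0 fell, against 1.50%, and the median was 0.088. NFE2L2, which encodes NRF2, had values of 7.48 and 7.43 in mock, 8.08 and 7.95 with securinine and 7.44 and 7.57 with 16F16. It rose by 0.56 ± 0.093 with securinine (limma adjusted p = 0.014) and was at 0.05 ± 0.093 with 16F16. The securinine call of NFE2L2 was lost under 5 of 14 alternatives. ATF4, a stress transcription factor that can act at the HMOX1 enhancers, rose by 0.65 ± 0.077 with securinine and was at -0.16 ± 0.077 with 16F16. ATF4 was lower with 16F16 than with securinine by 0.81 ± 0.077 (limma adjusted p = 0.0098), and NFE2L2 by 0.51 ± 0.093 (0.032), as HMOX1 was. In that direct comparison 3 of the 13 regulators were lower with 16F16 and 1 was higher in limma, against 9.51% called among all genes. The count of 4 was 0 without either securinine replicate or 16F16 replicate 1, with 6 to 7 at an unadjusted p under 0.05, and 2 without any other array.

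Other regulators had positive differences with both compounds. SQSTM1, an autophagy receptor that sequesters KEAP1, had values of 6.77 and 6.83 in mock, 8.26 and 8.30 with securinine and 7.85 and 7.78 with 16F16. It rose by 1.47 ± 0.080 with securinine and 1.01 ± 0.080 with 16F16 (limma adjusted p = 0.0018 and 0.026). KEAP1, the NRF2 inhibitor, rose by 0.65 ± 0.077 with securinine and was at 0.49 ± 0.077 with 16F16 (limma adjusted p = 0.0063 and 0.052). MAFG, a small MAF partner of NRF2, rose by 0.70 ± 0.11 with securinine and was at 0.61 ± 0.11 with 16F16 (0.013 and 0.067). FBXO22, a ubiquitin ligase subunit known to target the HMOX1 repressor BACH1, rose by 0.59 ± 0.079 with securinine and was at 0.42 ± 0.079 with 16F16 (0.0081 and 0.067). The securinine calls were lost under 4 of 14 alternatives for MAFG, 3 for FBXO22 and 1 for KEAP1. Between the compounds KEAP1, MAFG and FBXO22 did not pass in limma (adjusted p = 0.24, 0.66 and 0.23). NFE2L3, a relative of NRF2, fell by 1.37 ± 0.10 with securinine (0.0027) and was at -0.29 ± 0.10 with 16F16. The securinine count of 9 regulators was 4 without mock replicate 1, mock replicate 2 or securinine replicate 1 and 5 without securinine replicate 2, and 5 when all probe sets were tested. With 16F16 the SQSTM1 call was lost without any 1 of the 6 arrays, with 4 to 5 regulators then at an unadjusted p under 0.05 in limma.

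The list of NRF2 targets held 39 genes, of which 18 were measured besides HMOX1 and BLVRB. SQSTM1, KEAP1 and MAFG are also among the regulators above, and FECH among the genes of heme synthesis. The counts of these lists therefore share genes and are not separate results. With securinine 11 rose and 1 fell in limma, against 19.0% called among all genes, and with 16F16 3 rose and 0 fell, against 1.50%. TXNRD1, thioredoxin reductase, rose by 1.13 ± 0.084 and 0.64 ± 0.084, and SRXN1, sulfiredoxin, by 1.20 ± 0.087 and 0.61 ± 0.087, with securinine and 16F16 respectively. The small GTPase RIT1 rose by 1.35 ± 0.11 with securinine and was at 0.56 ± 0.11 with 16F16, and peroxiredoxin PRDX1 rose by 0.62 ± 0.076 and was at 0.17 ± 0.076. Against mock the pair did not bound the list, since SQSTM1 (1.47) and RIT1 (1.35) exceeded HMOX1 with securinine, and TALDO1 (-0.29) and PGD (-0.13) lay below it with 16F16. The gene that fell was the pentose phosphate enzyme TALDO1, at -0.71 ± 0.10 with securinine, named after its value was seen. Its securinine call was lost under 4 of 14 alternatives, and that of PRDX1 under 2. Leaving out mock replicate 1 or mock replicate 2 lowered the securinine count of 12 to 5, and leaving out securinine replicate 1 or 2 lowered it to 6 or 7. The 16F16 count was 0 without any 1 of the 6 arrays, as was the count over all genes, with 6 to 10 genes at an unadjusted p under 0.05 in limma.

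Against securinine, the 18 NRF2 targets lay between -0.79 (RIT1) and 0.41 (TALDO1) with 16F16, with a median of -0.194. HMOX1 at -1.21 lay below the whole range and BLVRB at 1.16 above it. These values are the gaps between the differences from mock on which the pair was selected, so this position is part of the choice. In limma 6 of the 18 were lower with 16F16 than with securinine and 0 were higher, against 9.51% called among all genes. That count was 0 without any 1 of the 6 arrays, with 9 to 11 genes at an unadjusted p under 0.05 in limma, and it was 2 with the replicate number as a block. The NRF2 target list itself was drawn up with results of these data known.

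**Figure D3:**
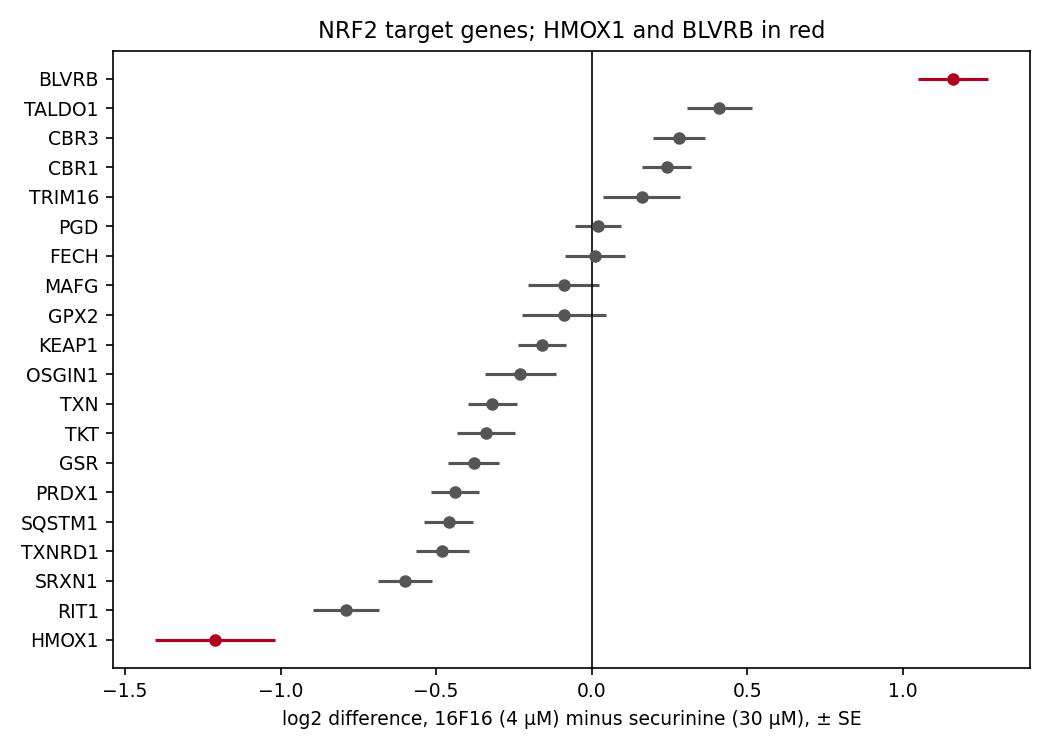
Log2 difference between 16F16 (4 µM) and securinine (30 µM) for 20 measured NRF2 targets, in order of size. Points are differences of group means (n = 2 arrays per group) and bars are ± SE of the limma fit. HMOX1 (-1.21) is at the bottom and BLVRB (1.16) at the top, outside the range of the other 18 genes. The pair was selected on its differences from mock, and these values are the gaps between those differences.

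BLVRB also reduces flavins, and few other genes on the flavin handling list were measured. FLAD1, the synthase that makes FAD, had values of 7.13 and 7.16 in mock, 6.79 and 6.78 with securinine and 6.84 and 7.03 with 16F16. It fell by 0.36 ± 0.094 with securinine (limma adjusted p = 0.04995, just under the threshold of 0.05) and was at -0.21 ± 0.094 with 16F16. The call was lost under 6 of 14 alternatives. RFK, riboflavin kinase, was at 0.01 ± 0.11 with either compound. The 3 genes measured on that list besides BLVRB were FLAD1, RFK and NOS1. None of them passed with 16F16 in limma, with 0 at an unadjusted p under 0.05.

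The genes with the most similar profiles were found by the root mean square difference over the 6 arrays, after each gene was centred on its mock mean. Among 11914 other protein-coding genes, the nearest to HMOX1 was MGP, matrix Gla protein, an inhibitor of calcification, at 0.162 on the log2 scale. MGP had values of 3.47 and 3.46 in mock, 4.60 and 4.50 with securinine and 3.51 and 3.88 with 16F16. The next were CAVIN1, a coat protein of caveolae (0.176), the retrotransposon-derived imprinted gene PEG10 (0.187), REEP3, a protein that shapes the endoplasmic reticulum (0.202), the Wnt antagonist DKK1 (0.215) and SIPA1L2 (0.223). All 6 were higher on both securinine arrays than on the other 4, by 0.97 to 1.16 over mock, and MGP and CAVIN1 shared the high second 16F16 array of HMOX1. These genes were chosen for nearness on these same arrays, so the shared pattern is part of the choice. The median over all genes was 0.79. BLVRB stood at 0.991 from HMOX1, further than that median.

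The nearest gene to BLVRB was PLPPR2, a phospholipid phosphatase-related membrane protein, at 0.196. PLPPR2 had values of 8.04 and 7.97 in mock, 7.98 and 7.95 with securinine and 8.78 and 8.81 with 16F16. The next were ABHD1 (0.233), LHFPL6 (0.246), the vesicle SNARE VAMP1 (0.246), the lipoprotein receptor relative LRP10 (0.251) and the p53 family member TP73 (0.261). All 6 were higher on both 16F16 arrays than on the other 4, by 0.71 to 0.92 over mock, less than the 1.11 of BLVRB. This shared pattern too is part of the choice by nearness. LHFPL6 differed in its securinine arrays, which lay 0.40 below mock. Likeness over 6 arrays is a description of these libraries.

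**Figure D4:**
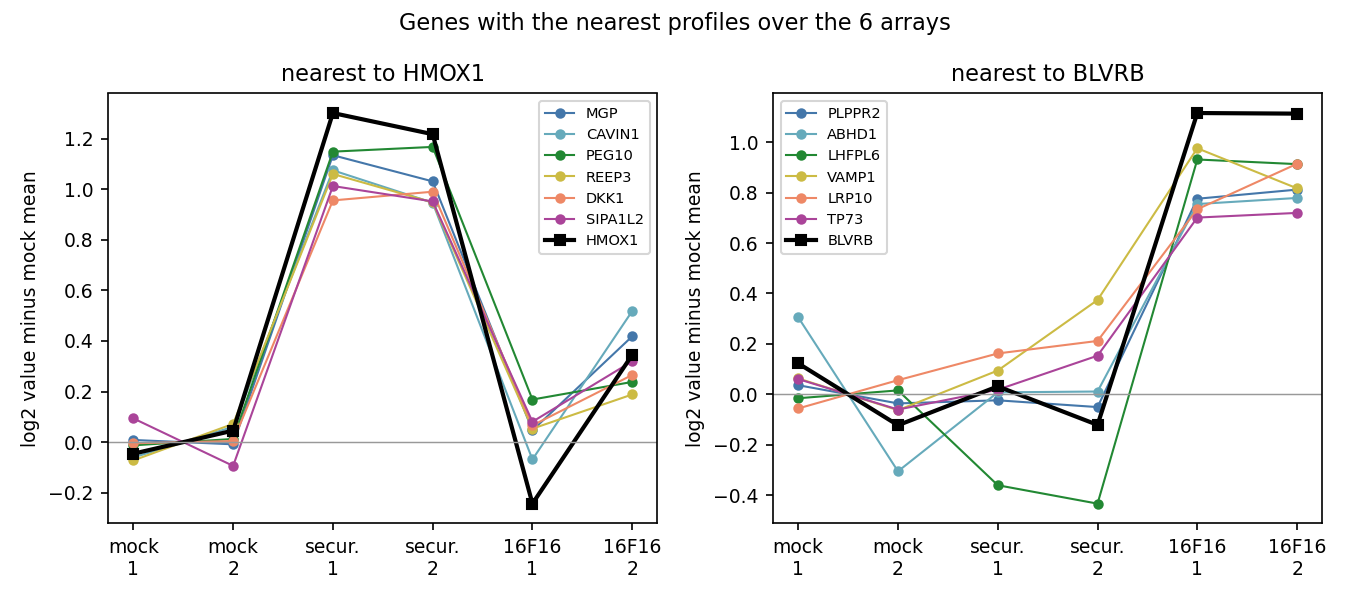
Log2 values minus the mean of the mock arrays on each of the 6 arrays, for HMOX1 (left, black) and BLVRB (right, black) with the 6 protein-coding genes nearest to each. Lines join the arrays of one gene for the eye, and the arrays have no order within a group. The HMOX1 group is raised by about the same amount on both securinine arrays, and the BLVRB group on both 16F16 arrays.

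The genes next to the pair on the chromosome are given for context. HMOX1 lies on chromosome 22, and of the 3 nearest measured protein-coding genes on each side, 0 were higher with securinine and 2 were lower in limma, against 8.40% and 10.6% of all genes. Next to HMOX1, TOM1, an endosomal sorting protein, was at 0.08 ± 0.11, and the helicase subunit MCM5 fell by 0.48 ± 0.076 (limma adjusted p = 0.012). The MCM5 call was lost under 5 of 14 alternatives. HMGXB4 fell by 0.72 ± 0.080 (0.0053), TIMP3 was at -0.74 ± 0.21, the myoglobin gene MB at -0.19 ± 0.074 and the mitochondrial thioredoxin TXN2 at -0.09 ± 0.081. BLVRB lies on chromosome 19, and of its 6 neighbours 0 passed with 16F16 in limma, against 1.50% called among all genes. At an unadjusted p under 0.05 in that limma fit were 2 of the 6, against 3139 of all 14884 genes. SERTAD3, next to BLVRB on one side, was at 0.01 ± 0.13 with 16F16, and SHKBP1 on the other side was at -0.11 ± 0.079. PRX was at 0.14 ± 0.13, LTBP4 at 0.08 ± 0.10, NUMBL at 0.53 ± 0.086 and SERTAD1 at 0.56 ± 0.11.

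SERTAD1, a cell cycle regulator that is the second protein-coding gene from BLVRB on its side, had the opposite order of compounds. Its values were 6.46 and 6.23 in mock, 7.58 and 7.55 with securinine and 6.96 and 6.84 with 16F16. It rose by 1.22 ± 0.11 with securinine (limma adjusted p = 0.0039), where BLVRB was at -0.04. SERTAD1 was lower with 16F16 than with securinine by 0.66 ± 0.11 (limma adjusted p = 0.025), where BLVRB was higher by 1.16. NUMBL rose by 0.58 ± 0.086 with securinine and SHKBP1 fell by 0.44 ± 0.079 (limma adjusted p = 0.011 and 0.017). These calls were lost under 4 of 14 alternatives for NUMBL and 5 for SHKBP1.

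**Figure D5:**
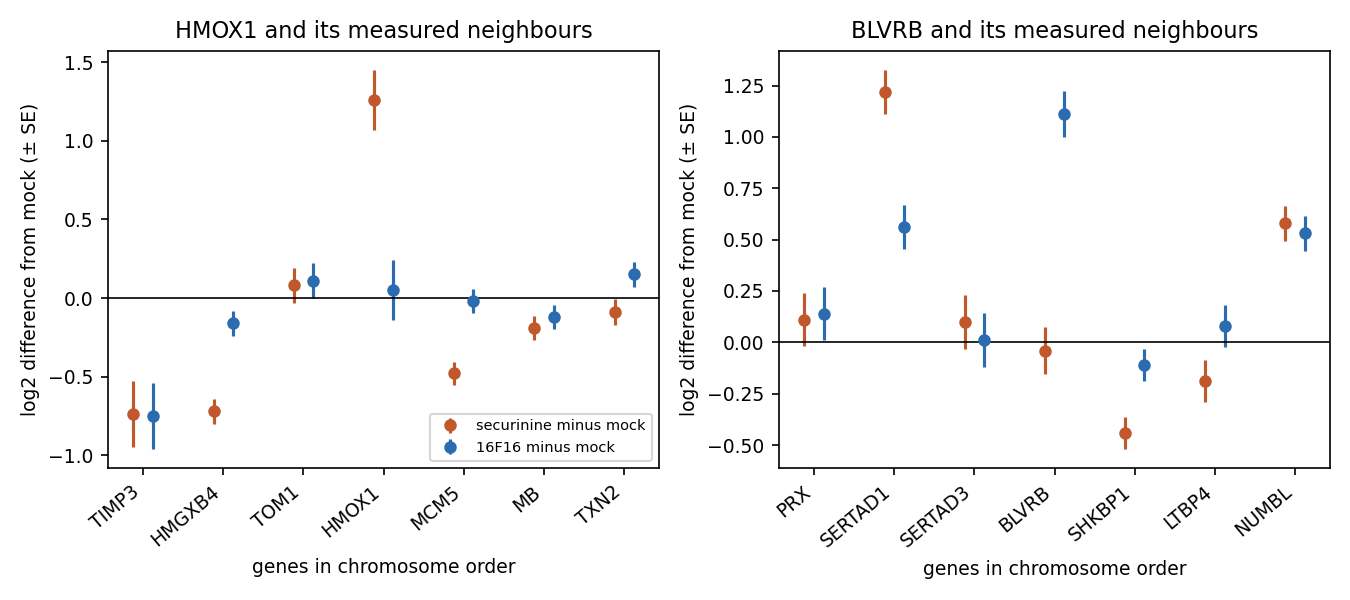
Log2 differences from mock for HMOX1 (left) and BLVRB (right) with the 3 nearest measured protein-coding genes on each side, in chromosome order. Points are differences of group means (n = 2 arrays per group) and bars are ± SE of the limma fit, for securinine (orange) and 16F16 (blue). HMOX1 is the highest securinine point of its panel (1.26), and SERTAD1 is the highest of the other (1.22), where BLVRB has the highest 16F16 point (1.11).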

How the data were processed

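The data are 6 Affymetrix Human Gene 2.0 ST arrays of RNA from SH-SY5Y cells. The authors deposited 1 log2 value per array for each of 53617 probe sets, made with RMA, per the submitters' processing notes, which also name limma and give no version or setting. RMA makes values relative within the set of arrays. The sources used here name no annotation release or filter, and scanner files were not used here. Precision is limited by the number of arrays (median SE of a difference 0.11).

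Of the probe sets, 16098 (30%) had 1 gene symbol in the platform table and none had several. For genes with several, the probe set with the highest mean was taken, giving 14884 genes. Gene types and neighbours came from RefSeq's gene table (GRCh38.p14), joined on the Entrez identifier. Limma 3.58.1 in R 4.3.3 (lmFit, eBayes) was fitted to the 6 arrays with no term but group, with two-sided p-values adjusted by Benjamini-Hochberg over 14884 genes. The fit had 3 residual and 2.68 prior degrees of freedom, and it was tested on simulated data. Intervals use the same fit and are not adjusted for the selection of the pair on these data.

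The members, the gene lists (heme breakdown, synthesis, transport, iron, regulators, flavin, NRF2 targets, cell markers) and the naming rule were chosen with earlier results of these data known. Named were up to 6 called genes per list, the paralogs, direct regulators, 6 nearest profiles and 3 measured neighbours per side. Other choices are marked. Alternatives were other scalings, the replicate number as a block, averaged probe sets, an intensity trend, the 4 arrays of the compared groups alone, a filter on low values, all probe sets, and each array left out. Those for regulators, NRF2 targets and single genes were added after seeing the data.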

Additional observations from a re-analysis of the deposited data

How the results depend on the processing

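The differences of HMOX1 and BLVRB moved little under quantile normalization and centring on the median, with HMOX1 at 1.229 to 1.259 (securinine against mock) and BLVRB at 1.114 to 1.137 (16F16 against mock). Averaging probe sets and the replicate block cannot move them, since each gene has 1 probe set and the design is balanced. Leaving out 1 array gave 1.214 to 1.305 and 0.992 to 1.237. The other differences ran, leaving out 1 array, from -0.243 to 0.345 (HMOX1, 16F16 against mock), -0.168 to 0.078 (BLVRB, securinine against mock), -1.502 to -0.914 (HMOX1, 16F16 against securinine) and 1.083 to 1.236 (BLVRB, 16F16 against securinine). Differences between replicates correlated at -0.05 to 0.0381 between groups, so no shift shared by replicate number was seen. Whether samples with the same number were handled together is not stated, and these correlations cannot settle it. With the replicate block the counts of heme and iron genes were 6 for securinine against mock, 0 for 16F16 against mock and 1 for 16F16 against securinine. For securinine against mock the count of 9 became 2 with all probe sets tested and 1 to 6 without 1 array. For 16F16 against mock the count of 0 became 1 with an intensity trend. For 16F16 against securinine the count of 5 became 0 with all probe sets tested, 10 with an intensity trend, 1 with the 4 arrays of these groups alone and 0 to 2 without 1 array. Fits with fewer arrays have fewer residual degrees of freedom. Testing all probe sets adjusts over more features and also changes the standard errors, as for ATF4 with securinine (0.0965 in place of 0.0765). The cause of the changes in these counts was not tested. Of 46 values of single named genes, 20 kept their status, called or not called, under all 14 alternatives. A call was lost under at least 1 for 21 values and gained for 5, and 0 reversed. The 20 include values never called, such as those of HMOX2 with either compound. Among NRF2 targets the 16F16 count of 3 became 10 with an intensity trend and 0 with the replicate block, and the regulator count of 1 became 4 and 0. Probe sets near the lower quartile, such as CD163, or under it, such as STEAP1, give differences limited by low signal.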

Other observations

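Among the 6 replicate gaps of the pair, 3 were near the middle of all genes, with 43.9% (HMOX1, mock), 38.4% (HMOX1, securinine) and 61.1% (BLVRB, securinine) of genes having a smaller gap. For HMOX1 the 16F16 arrays were 0.588 apart on the log2 scale, wider than the gap of 95.6% of the 14884 genes, whose median gap was 0.129. For BLVRB the 16F16 arrays were 0.00236 apart, and 1.23% of genes had a smaller gap. Its mock arrays were 0.245 apart, wider than 79.9% of genes.

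HEBP1, the heme-binding protein that fell with securinine, had log2 values of 8.17 and 8.0 in mock, 7.43 and 7.32 with securinine and 8.39 and 8.16 with 16F16. CYBRD1, a membrane ferric reductase chosen after its values were seen, had 6.56 and 6.52 in mock, 6.18 and 6.32 with securinine and 7.15 and 6.71 with 16F16. It did not pass in limma between the compounds (0.68 ± 0.16, adjusted p = 0.053). TF, the transferrin gene, also chosen after its values were seen, was lower with 16F16 than with securinine by 0.47 ± 0.085 (limma adjusted p = 0.032), with values of 3.70 and 3.69 against 4.22 and 4.11.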
